A study of Mus musculus with 36 samples.

Results

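The 10 genes described here are the 8 mouse E2F transcription factor genes (E2f1 to E2f8), Rbl1, which encodes the pocket protein p107, and Foxm1, a forkhead transcription factor gene of the dividing cell. They were taken by symbol from the 21955 rows of each count table, and all 10 were present and passed the filter on low counts. The data are RNA-seq counts from regenerating mouse liver, all of the inbred strain C57BL/6JN. Young mice (4 months) and old mice (18 months) were sampled before regeneration and at time points labelled 48, 72, 96, 120 and 240. The unit of these times is not in the labels, which also do not say how regeneration was started, and name old mice as the treated group. With 2 ages and 6 time points there were 12 groups of 3 libraries, described as biological replicates, or 36 in all. The labels name no transgene or drug in any group, and the libraries were made from total RNA of frozen liver after removal of ribosomal RNA.

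E2F proteins bind the promoters of genes that cells need to copy their DNA, and most of them bind as pairs with a DP protein. In resting cells, pocket proteins of the retinoblastoma family hold E2F complexes in a repressive state, until cyclin-dependent kinases phosphorylate the pocket proteins and release the activators. E2F1, E2F2 and E2F3 are the classical activators, E2F4 and E2F5 work mainly with the pocket proteins p107 and p130 as repressors, E2F6 represses with Polycomb partners and without a pocket protein, and E2F7 and E2F8 are atypical repressors that bind DNA without a DP partner. Several of these genes are themselves E2F targets, so that the activators and the repressors that later silence them are made in the same wave. FOXM1 acts after DNA replication, on genes of mitosis. In the liver, Foxm1 is known for its part in hepatocyte mitosis, and E2f1, E2f7 and E2f8 for their part in hepatocyte ploidy.

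Library totals ran from 2328233 to 6034446 counts, with a median of 4439170. Levels are given as CPM, that is counts scaled to a common library total after TMM scaling of the library totals, and tests are edgeR quasi-likelihood tests of 13436 genes over all 36 libraries, with p-values adjusted by Benjamini-Hochberg over all genes tested. Called means an adjusted p below 0.05. A background is the share of all genes called in the main fit over all 36 libraries, unless another scaling is named. Where the libraries of 2 groups are said not to overlap, this describes the values, and the share of all genes without overlap was not taken. Hepatocyte markers dominated every group, with a summed level of 10 markers from 24583 to 38507 CPM before regeneration. The old library 2 at 48 stood apart from the other old libraries of that time. Its summed level of 6 cholangiocyte markers was 215 CPM against 56.7 and 68.0 in the other old libraries at 48 and 28.8 to 40.6 in young livers, and its 10 macrophage and monocyte markers summed to 161 CPM against 457 to 732 in the other libraries of both ages at 48. Young libraries 1 and 2 at 72 also stood apart, with summed stellate cell markers of 890 and 915 CPM against 360 in library 3, and cholangiocyte markers of 125 and 286 CPM against 41.2. In each group 1 library carried Y-linked transcripts and 2 did not. Whole tissue was sequenced, so fewer cells of a type and less RNA per cell cannot be told apart.

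Per kilobase of exon, 6 of the genes lay well above the other 4 before regeneration. Over the 6 libraries of both ages, E2f8 had 5.06 ± 1.65 CPM per kb (SD, n = 6), E2f4 4.63 ± 1.098, E2f3 4.32 ± 0.884, E2f5 3.26 ± 0.464, E2f6 2.58 ± 0.309 and E2f1 2.19 ± 0.742. E2f2 (0.513 ± 0.245), Rbl1 (0.492 ± 0.1502), Foxm1 (0.365 ± 0.254) and E2f7 (0.164 ± 0.113) followed. Neighbours in this order overlapped between libraries, except that the lowest E2f1 library (1.15 CPM per kb) stayed above the highest E2f2 library (0.818). In young livers at 48 the order was led by Foxm1 at 17.2 ± 7.52 CPM per kb (n = 3), which overlapped E2f8 at 14.7 ± 1.19, and E2f1 at 12.01 ± 1.70 stood apart from E2f4, the next gene at 6.19 ± 0.751. Old livers at 48 were led by E2f8 at 10.1 ± 5.71 and E2f4 at 8.01 ± 2.31, with Foxm1 in the seventh place at 1.91 ± 2.05. Without the old library 2, E2f8 was at 13.4 and E2f4 at 6.77 CPM per kb (mean of 2 libraries), E2f1 went from the fifth place at 3.45 to the fourth at 4.98, and Foxm1 kept its place at 2.69. Exon lengths are those of GENCODE vM21, and the annotation behind the deposited counts is not given in the sources used here.

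In that annotation of GRCm38, the genes lie on 9 chromosomes. E2f1 (chr2:154559407-154569892) and Rbl1 (chr2:157145893-157204534) share chromosome 2, and both are on the minus strand. E2f2 is at chr4:136172394-136196057, E2f3 at chr13:29906575-29986063, E2f4 at chr8:105297663-105305370 and E2f5 at chr3:14578641-14606309. E2f6 is at chr12:16810963-16839742, E2f7 at chr10:110745439-110787384, E2f8 at chr7:48866429-48881596 and Foxm1 at chr6:128362967-128376146. E2f5 overlaps 1810022K09Rik, a protein-coding gene on the other strand that is also in the tables. The use of strand in counting is not given in the sources used here, so it is not known how reads from the stretch these 2 genes share were counted.

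Promoter windows from RefSeq (GRCm38.p6), 250 bases before to 50 bases after an annotated start, were available for 7 of the 10 genes in 9 windows. E2f4, E2f5 and Foxm1 were not among them. A strict E2F motif (TTTGGCGC, TTTCCCGC, TTTCGCGC or TTTGCCGC, on either strand) was present in 4 of the 9 windows, those of Rbl1, E2f2, E2f7 and E2f3, and in 2.265% of all 32851 windows of this length. The 4 windows are shown because 3 of these genes rose together in the young liver and the fourth, E2f3, did not. Capitals mark the E2F motif, and each sequence is read 5′ to 3′ on the strand of the gene.
Rbl1, chr2:157204485-157204784, minus strand: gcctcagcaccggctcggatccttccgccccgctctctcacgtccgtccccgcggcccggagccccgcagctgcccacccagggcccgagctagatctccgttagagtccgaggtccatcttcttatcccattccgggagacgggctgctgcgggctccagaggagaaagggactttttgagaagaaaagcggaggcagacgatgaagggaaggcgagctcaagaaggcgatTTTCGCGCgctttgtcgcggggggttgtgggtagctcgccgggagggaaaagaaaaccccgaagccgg
E2f2, chr4:136172024-136172323, plus strand: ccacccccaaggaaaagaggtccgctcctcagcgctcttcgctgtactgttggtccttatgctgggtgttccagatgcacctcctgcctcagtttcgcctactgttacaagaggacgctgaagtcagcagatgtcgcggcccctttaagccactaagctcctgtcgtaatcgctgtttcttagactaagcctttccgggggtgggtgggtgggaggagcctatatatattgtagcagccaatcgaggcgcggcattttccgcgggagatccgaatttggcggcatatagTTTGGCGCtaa
E2f7, chr10:110745189-110745488, plus strand: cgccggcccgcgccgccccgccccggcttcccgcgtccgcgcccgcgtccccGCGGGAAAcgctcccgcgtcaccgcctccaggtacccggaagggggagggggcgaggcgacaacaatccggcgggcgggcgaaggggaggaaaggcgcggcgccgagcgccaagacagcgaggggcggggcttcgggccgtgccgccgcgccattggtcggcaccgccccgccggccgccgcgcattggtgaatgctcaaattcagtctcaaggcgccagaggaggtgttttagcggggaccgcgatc
E2f3, chr13:29986014-29986313, minus strand: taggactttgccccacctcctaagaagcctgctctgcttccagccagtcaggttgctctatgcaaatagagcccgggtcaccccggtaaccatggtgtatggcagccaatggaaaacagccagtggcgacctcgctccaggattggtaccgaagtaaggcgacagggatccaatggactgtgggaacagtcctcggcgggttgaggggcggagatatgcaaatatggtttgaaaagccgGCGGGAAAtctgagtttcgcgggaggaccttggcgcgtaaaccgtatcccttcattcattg
The motif begins 18 bases before the start in Rbl1, 11 before it in E2f3, 198 before it in E2f7 and 39 after it in E2f2. In E2f7 and E2f3 it is read on the opposite strand. The RefSeq start of E2f2 lies upstream of the GENCODE gene, and that of E2f1 lies inside it. The CHR element (TTTGAA or TTCGAA, either strand), which is bound by the MuvB complex, was in 3 windows, those of E2f8, E2f3 and a second E2f2 start, against 19.23% of all windows. CCAAT was in 5 windows, against 37.41%. The windows of E2f1 and E2f6 and a second E2f3 window held none of these letters. The E2f1 window (chr2:154569377-154569676) lies wholly inside the GENCODE gene, so the sequence before the GENCODE start of E2f1 was not searched. A match is a description of the sequence, not of binding.

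In young livers most of the family was higher at 48 than before regeneration. Of the 10 genes, 7 rose at 48 and none fell, against a background of 12.2% of all genes called higher (15.3% under scaling by total counts). Foxm1 stood at 0.208, 1.99 and 1.21 CPM in the 3 young libraries before, and at 107, 52.5 and 138 CPM at 48. The lowest library at 48 was thus far above the highest before (log2 fold change 6.47, SE 0.88, adjusted p = 8.60e-06). The 95% interval of this change was 4.74 to 8.19, and Foxm1 had 1, 8 and 5 counts in the libraries before.

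Rbl1, whose protein p107 binds the repressor E2Fs, went from 1.66, 3.48 and 3.39 CPM to 40.7, 23.0 and 23.2 CPM, with no overlap (log2 fold change 3.36, SE 0.38, adjusted p = 1.15e-06). E2f7, an atypical repressor, went from 0.208, 0.995 and 1.21 CPM to 14.1, 6.47 and 10.3 CPM (log2 fold change 3.69, SE 0.54, adjusted p = 1.31e-05). Of the activators, E2f2 rose from 1.87, 2.24 and 2.66 CPM to 18.0, 14.2 and 21.4 CPM (log2 fold change 2.98, SE 0.56, adjusted p = 0.000243). In all 3 genes every library at 48 was above every library before.

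E2f1, the best-known activator, had 9.15, 6.22 and 3.63 CPM before and 43.6, 37.0 and 33.0 CPM at 48 (log2 fold change 2.56, SE 0.51, adjusted p = 0.000504). E2f8, the second atypical repressor, began from a much higher level and changed less, from 31.4, 26.1 and 40.7 CPM to 74.5, 87.2 and 78.6 CPM (log2 fold change 1.29, SE 0.47, adjusted p = 0.0480). E2f5 also rose, from 6.87, 5.47 and 6.30 CPM to 10.8, 10.1 and 8.13 CPM (log2 fold change 0.64, SE 0.23, adjusted p = 0.0462). The groups did not overlap in any of these 3 genes. The calls of E2f8 and E2f5 sat at the threshold and held in 25 and 26 of 47 alternative settings, while those of E2f1, E2f2, E2f7, Rbl1 and Foxm1 held in all 47.

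Marker sums of several cell types also differed between these time points in young livers. From before to 48, the hepatocyte sum went from 33054 to 38507 CPM down to 24803 to 26792, endothelium from 432 to 478 down to 259 to 353, T and B cells from 10.4 to 16.0 down to 5.91 to 8.82, and cholangiocytes from 41.8 to 50.6 down to 28.8 to 40.6, all without overlap. Macrophage, stellate and erythroid sums overlapped. At 72 hepatocyte (23484 to 29469 CPM) and endothelial sums (288 to 342) were again below all libraries before. The part of these markers in the changes was not tested.

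**Figure D1:**
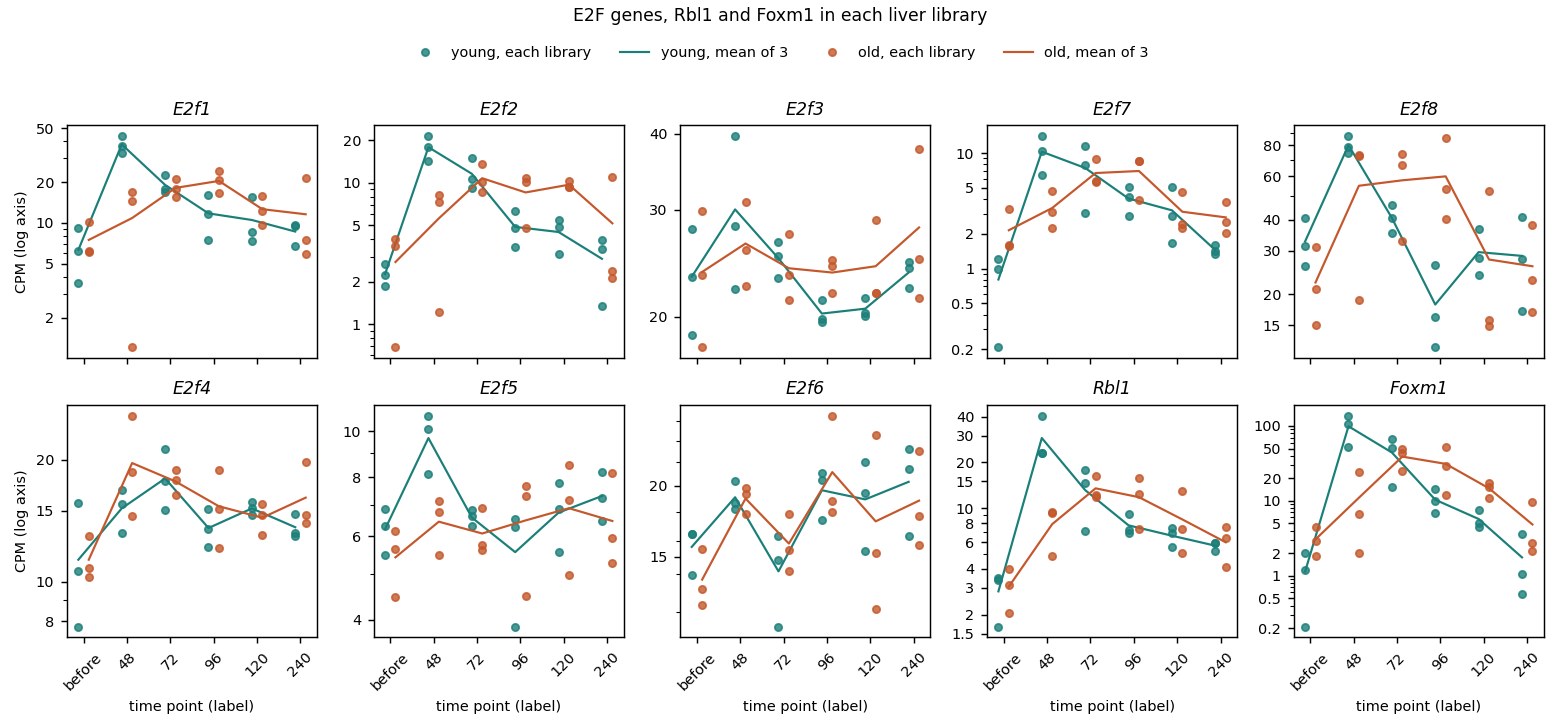
CPM of the 10 genes in each library (points) and the group mean (lines) against time point, young in green and old in orange, on log axes that differ between panels. The young means of E2f1, E2f2, E2f7, E2f8, Rbl1 and Foxm1 are highest at 48, and the old means of these genes at 72 or 96. For E2f8 the old means are close, at 54.9, 57.8 and 59.9 CPM at 48, 72 and 96. Its old libraries 1 and 3 at 48, at 73.1 and 72.6 CPM, lie above these means, and library 2, at 19.0 CPM, lies below them.

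At later times fewer of the genes were called in young livers. At 72, 6 genes were still called above before (background 9.21%, or 15.6% under scaling by total counts), namely Foxm1 at 50.5, 67.1 and 15.3 CPM, E2f7, E2f2, Rbl1, E2f1 and, for the first time, E2f4. The log2 fold changes against before were 5.31 for Foxm1 (adjusted p = 0.000363), 3.21 for E2f7 (0.000386), 2.36 for E2f2 (0.00494), 2.23 for Rbl1 (0.000410) and 1.57 for E2f1 (0.0344). Library 3 at 72 was the lowest of its group for Foxm1, Rbl1, E2f7, E2f2 and E2f1, and it was also the one with the lower stellate and cholangiocyte markers given above. Their part in these levels was not tested. Without library 1 or without library 2 at 72, E2f1 (adjusted p = 0.0694 and 0.108) and E2f4 (0.154 and 0.0712) were not called, while Foxm1, E2f7, E2f2 and Rbl1 were. At 96 only E2f7 was still called (log2 fold change 2.32, SE 0.58, adjusted p = 0.0336), against 0.662% of all genes, and this call was lost when any of the 6 libraries compared was left out. At 120 and 240 edgeR called 0 of the 10 genes (backgrounds 0.581% and 0.246%), with 3 and 1 at an unadjusted p under 0.05, and DESeq2 called 0 at both. The group mean of Foxm1 was 10.4 CPM at 96, 5.73 at 120 and 1.76 at 240, and that of Rbl1 7.72 at 96, 6.60 at 120 and 5.68 at 240.

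In young livers E2f8 was called at 48 only. It stood at 35.6, 45.9 and 40.7 CPM at 72, and its 96 libraries, at 12.2, 16.1 and 26.3 CPM, included the lowest of all 36. The mean at 96 was below the mean before, 18.2 ± 7.24 against 32.7 ± 7.37 CPM (SD, n = 3), but the groups overlapped and the test did not call the difference (log2 fold change -0.87, SE 0.48, adjusted p = 0.406). At the same time point Rbl1, E2f7 and Foxm1 were all above every library before.

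In old livers E2f4, E2f8 and Rbl1 rose at 48 against before, 3 of 10 genes against a background of 12.1% of all genes. Rbl1 went from 3.99, 3.13 and 2.05 CPM to 9.34, 4.86 and 9.41 CPM (log2 fold change 1.35, SE 0.39, adjusted p = 0.0128), and E2f4, the main pocket-bound repressor, from 10.8, 13.0 and 10.3 CPM to 18.7, 25.7 and 14.5 CPM (log2 fold change 0.79, SE 0.21, adjusted p = 0.00830). E2f8 went from 15.0, 31.1 and 21.0 CPM to 73.1, 19.0 and 72.6 CPM (log2 fold change 1.29, SE 0.48, adjusted p = 0.0481), with library 2 inside the range of the libraries before, and this call held in 24 of 47 settings. Foxm1, at 4.46, 2.90 and 1.83 CPM before and 6.67, 2.03 and 24.3 CPM at 48, was not called (log2 fold change 1.84, SE 0.78, adjusted p = 0.0857). Without the old library 2 at 48, the genes called were Rbl1, E2f8, Foxm1 and E2f2 (adjusted p = 0.00686, 0.0109, 0.0332 and 0.0448), and E2f4 was not among them. Between before and 48 in old livers, the sums of T and B cell markers (14.4 to 30.4 against 2.89 to 12.7 CPM), macrophage and monocyte markers (734 to 1004 against 161 to 732) and erythroid markers (19.4 to 30.5 against 12.7 to 16.4) did not overlap, and their part was not tested.

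In old livers at 72, 5 of the 10 rose against before (background 6.54%, or 9.52% under scaling by total counts). Foxm1 stood at 25.2, 43.1 and 48.6 CPM (log2 fold change 3.66, SE 0.76, adjusted p = 0.00234) and Rbl1 at 12.3, 16.4 and 11.9 CPM (log2 fold change 2.13, SE 0.38, adjusted p = 0.000652). E2f2 (8.62, 13.6 and 10.1 CPM), E2f7 (5.75, 5.62 and 8.81 CPM) and E2f4 (18.9, 16.4 and 17.8 CPM) were also called, with log2 fold changes of 1.96 (adjusted p = 0.0188), 1.64 (0.0225) and 0.64 (0.0476). In these 5 genes, and in E2f1 and E2f8, which were not called, every library at 72 was above every library before. Endothelial sums (372 to 504 CPM before, 292 to 347 at 72) and T and B cell sums (14.4 to 30.4, 8.89 to 13.3) did not overlap. The other marker sums overlapped, and the part of the markers was not tested.

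At 96, 3 genes were called (background 3.76%). Foxm1 stood at 29.6, 51.9 and 12.1 CPM (log2 fold change 3.36, SE 0.76, adjusted p = 0.00845), Rbl1 at 12.5, 15.7 and 7.31 CPM (log2 fold change 1.95, SE 0.39, adjusted p = 0.00338) and E2f7 at 8.59, 8.48 and 3.94 CPM (log2 fold change 1.69, SE 0.49, adjusted p = 0.0331). E2f1 had its highest old mean here, at 20.6, 24.0 and 16.6 CPM, and missed the threshold (log2 fold change 1.45, SE 0.51, adjusted p = 0.0826). DESeq2 called 6 genes at 96, and its share of all genes is not given here. Endothelial (303 to 344 CPM) and T and B cell sums (7.30 to 11.2) at 96 were below all old libraries before. So were macrophage and monocyte (543 to 731) and erythroid sums (16.0 to 18.9). The other marker sums overlapped, and the part of the markers was not tested. At 120 Rbl1 alone was called, at 12.9, 7.29 and 5.12 CPM (log2 fold change 1.43, SE 0.40, adjusted p = 0.0405), against 1.85% of all genes, and that call was lost without the old library 2 or 3 before or the old library 1 or 2 at 120. At 240 edgeR and DESeq2 both called 0 of the 10 genes (background 0.156%), with 3 at an unadjusted p under 0.05. The old comparisons share the 3 libraries before, and without library 3 of them 1 gene was called at 48 (E2f4), 2 at 72 (Foxm1 and Rbl1) and 1 at 96 (Rbl1). Rbl1 alone was called at 96 when the old library 2 at 96 was left out. Without the old library 2 at 48, 7 genes were called at 72 and 6 at 96. That library is in none of the groups compared but enters the estimate of the spread shared by all groups. The share of all genes called without it is not given here, so these counts are not read as a gain of the members.

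**Figure D2:**
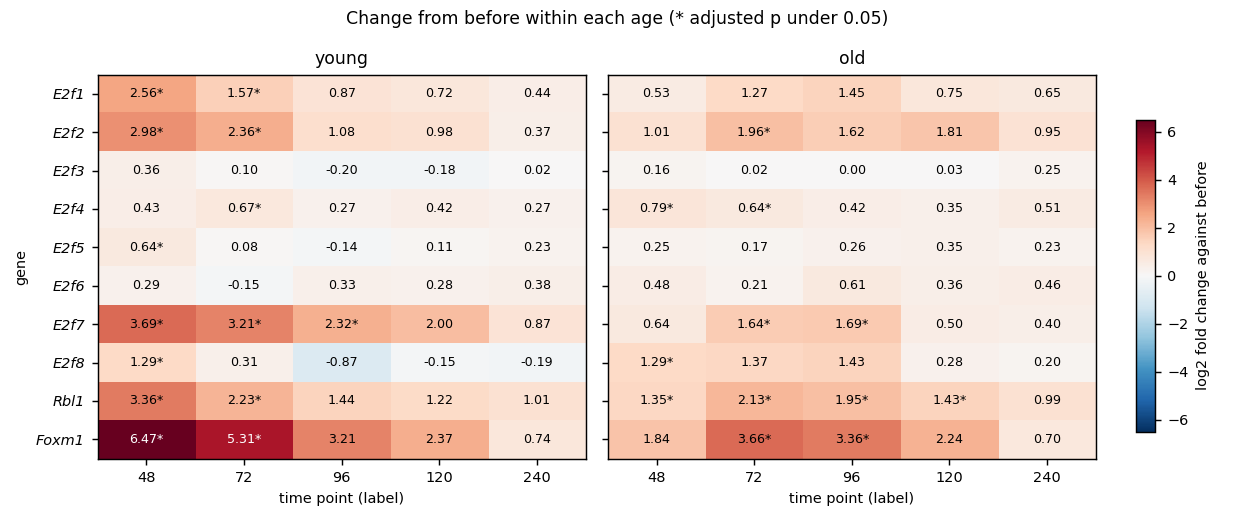
Log2 fold change against before for each gene (rows) at each later time point (columns) in young and old livers, with the fitted value in each cell and an asterisk at an adjusted p under 0.05. The young column at 48 holds 7 called genes and the old column at 48 holds 3, while the old columns at 72 and 96 hold 5 and 3.

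Set directly against young livers, old livers at 48 were lower in 5 of the 10 genes and higher in none, where 6.78% of all genes were called lower. Foxm1 differed most, with young libraries at 107, 52.5 and 138 CPM and old libraries at 6.67, 2.03 and 24.3 CPM (log2 fold change -3.16, SE 0.67, adjusted p = 0.00261). Rbl1 was at 40.7, 23.0 and 23.2 CPM in young and 9.34, 4.86 and 9.41 CPM in old (log2 fold change -1.89, SE 0.34, adjusted p = 0.000700). E2f1 was at 43.6, 37.0 and 33.0 CPM in young and 16.9, 1.22 and 14.5 CPM in old (log2 fold change -1.81, SE 0.48, adjusted p = 0.0139). All old libraries were below all young libraries in each of these genes.

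E2f2 (18.0, 14.2 and 21.4 CPM in young, 8.22, 1.22 and 7.36 CPM in old; log2 fold change -1.68, SE 0.50, adjusted p = 0.0260) and E2f7 (14.1, 6.47 and 10.3 CPM in young, 3.11, 2.23 and 4.70 CPM in old; log2 fold change -1.63, SE 0.44, adjusted p = 0.0145) completed the 5, again without overlap. The called genes thus held 2 activators, 1 atypical repressor, the pocket protein and Foxm1. The median log2 fold change of the 10 genes was -1.11, against 0.02 over all genes tested.

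The old library 2 at 48 had 1.22 CPM of E2f1, the lowest of all 36 libraries. Without that library, Foxm1 (-2.68, adjusted p = 0.0227) and Rbl1 (-1.65, adjusted p = 0.00881) were still called, and E2f1 (-1.28, 0.0508), E2f7 (-1.41, 0.0980) and E2f2 (-1.21, 0.157) were not. Leaving out the young library 1 at 48 left the same 2 calls. In the 24 libraries without Y-linked transcripts, the log2 fold changes were -2.61 for Foxm1, -2.18 for Rbl1, -2.37 for E2f1, -1.92 for E2f2 and -1.601 for E2f7, and 4 genes were called. The 12 libraries with Y-linked transcripts hold 1 per group, too few for a test. A fit of only the 6 libraries at 48 called 1 gene in all, and none of these 10 (adjusted p = 0.0790 for Rbl1 and 0.175 for Foxm1).

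Markers of other cell types at 48 were read beside these differences. Summed over each marker list, young and old libraries spanned 24803 to 26792 and 24868 to 26321 CPM for hepatocytes (10 of 10 markers measured), 457 to 650 and 161 to 732 for macrophages and monocytes (10 of 10), and 259 to 353 and 287 to 404 for endothelium (8 of 8). The spans were 291 to 395 and 371 to 561 CPM for stellate cells (8 of 8), 5.91 to 8.82 and 2.89 to 12.7 for T and B cells (9 of 10), and 11.8 to 18.2 and 12.7 to 16.4 for erythroid cells (4 of 8). These spans overlapped between the ages, and those of the cholangiocyte list (6 of 6), 28.8 to 40.6 and 56.7 to 215, did not. No marker measured was at 0 in all libraries of either group. The part of these cell types in the age difference was not tested.

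The levels at 48 were also averaged by class. The mean log2(CPM + 1) of E2f1, E2f2 and E2f3 was 4.80 ± 0.15 in young livers at 48 and 3.44 ± 1.00 in old livers (SD, n = 3), and that of E2f7 and E2f8 was 4.89 ± 0.20 and 3.83 ± 0.72. The libraries of the ages did not overlap in either class. The mean of E2f4, E2f5 and E2f6 was 3.91 ± 0.08 in young and 3.85 ± 0.07 in old livers, with overlap. Without the old library 2 at 48 the old means were 4.02 and 4.24, so that the differences from young livers went from -1.36 to -0.78 for the activators and from -1.06 to -0.65 for the atypical pair. By 96 the activators stood at 3.52 ± 0.26 in young and 4.07 ± 0.26 in old livers, and the atypical pair at 3.25 ± 0.38 and 4.40 ± 0.41, now without overlap and higher in old livers in both classes. These class means are a description of the levels, without a test.

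At 72 the ages overlapped in all 10 genes. Here edgeR called 0 of the 10 genes and 0% of all genes, 0 of the 10 had an unadjusted p under 0.05, and DESeq2 called 0. Foxm1 was at 50.5, 67.1 and 15.3 CPM in young and 25.2, 43.1 and 48.6 CPM in old, with a 95% interval of the log2 difference of -1.38 to 1.00. For Rbl1 the interval was -0.63 to 0.68 and for E2f1 -0.997 to 0.86. These intervals do not show that the ages are alike, but they leave out the fitted differences seen at 48.

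At 96 the fitted differences were positive in all 10 genes, with a median log2 fold change of 0.71. None was called by edgeR (background 0.171%), with 2 at an unadjusted p under 0.05. E2f8 was at 12.2, 16.1 and 26.3 CPM in young and 40.4, 86.0 and 53.4 CPM in old, and did not overlap (log2 fold change 1.75, SE 0.48, adjusted p = 0.0985). DESeq2 called it, with an adjusted p of 0.0185. Foxm1 was at 6.87, 14.2 and 9.95 CPM in young and 29.6, 51.9 and 12.1 CPM in old (log2 fold change 1.61, SE 0.66, adjusted p = 0.282), with 1 old library inside the young range. E2f1 and E2f3 were higher in every old library than in every young one, with log2 fold changes of 0.80 and 0.23 (adjusted p = 0.515 and 0.709). Some marker sums at 96 were lower in old livers without overlap. Macrophages and monocytes had 837.5 to 909 CPM in young and 543 to 731 in old. Endothelium had 389 to 407 and 303 to 344, and T and B cells 11.23 to 15.8 and 7.30 to 11.17. The other lists overlapped. Stellate sums were 811 and 929 CPM in young libraries 1 and 2 and 407 in library 3. The part of these markers was not tested.

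**Figure D3:**
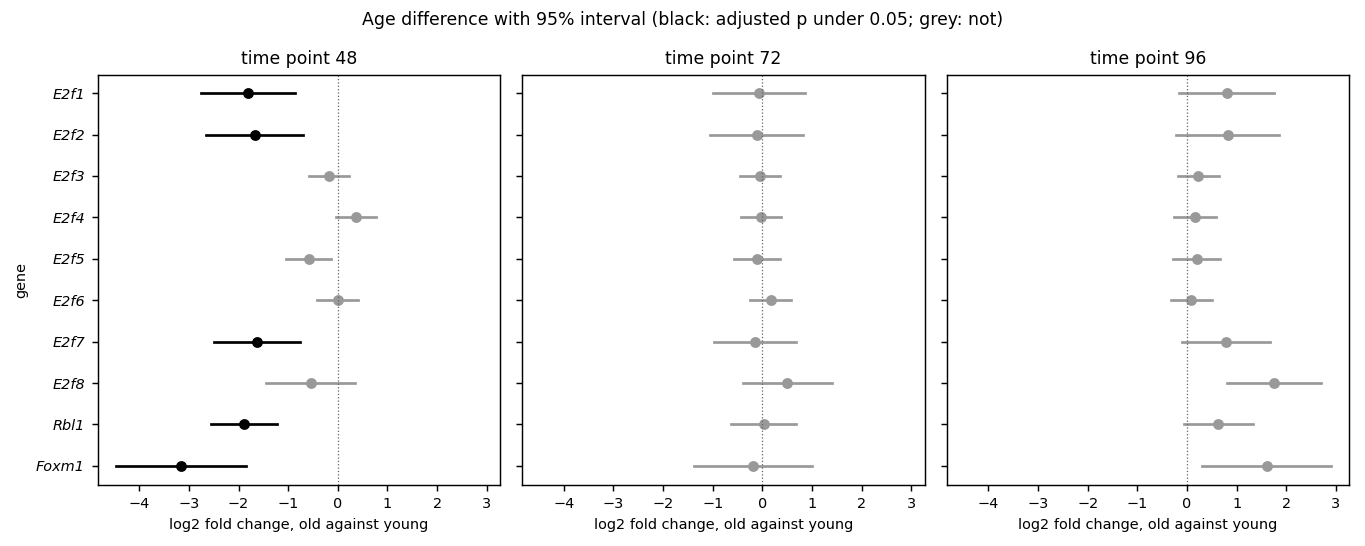
Log2 fold change of old against young livers with its 95% interval for the 10 genes at 48, 72 and 96, black where the adjusted p was under 0.05. At 48, 5 genes lie left of 0 in black. At 72 all intervals cross 0, and at 96 those of E2f8 and Foxm1 lie right of 0 without passing the adjusted threshold.

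Before regeneration edgeR and DESeq2 called 0 of the 10 genes between the ages (background 0.0595%), with 1, E2f7, at an unadjusted p under 0.05. E2f7 was at 0.208, 0.995 and 1.21 CPM in young and 3.29, 1.56 and 1.597 CPM in old (log2 fold change 1.42, SE 0.63, adjusted p = 0.664), on 1 to 14 counts per library. Hepatocyte marker sums before regeneration were 33054 to 38507 CPM in young and 24583 to 31847 in old livers, without overlap. Macrophage and monocyte sums were 501 to 689 and 734 to 1004, also without overlap. The other lists overlapped, and the part of these markers was not tested. Both tools also called 0 at 120 (background 0%) and 240 (background 0.0149%), with 1 and 0 at an unadjusted p under 0.05. At 120 every old library was above every young one in Foxm1 (17.6, 15.5 and 11.1 CPM against 7.60, 4.45 and 5.14 CPM) and E2f2 (10.3, 9.41 and 9.41 CPM against 5.46, 3.15 and 4.85 CPM), and the test called neither (adjusted p = 0.571 and 0.481). E2f3 was separate as well, at 21.9, 28.9 and 21.9 CPM against 20.1, 21.5 and 20.3 CPM, and was not called (adjusted p = 0.774). Averaged over the 6 time points, 0 of the 10 genes were called by either tool and 0 had an unadjusted p under 0.05, while 5.98% of all genes were called.

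Whether the age difference depended on time was tested as an interaction of age and time. Foxm1 (adjusted p = 0.0191) and Rbl1 (adjusted p = 0.0186) were called, 2 of 10 against 2.76% of all genes. E2f7 came next, at an adjusted p of 0.0621, followed by E2f2 (0.127), E2f1 (0.190) and E2f8 (0.219). DESeq2 called E2f2 and E2f7 as well. Neither Foxm1 nor Rbl1 was called without the old library 2 at 48 (adjusted p = 0.0571 and 0.0807), without the young library 1 at 48 (0.0575 and 0.120) or without the 12 libraries with Y-linked transcripts (0.180 and 0.0668). Foxm1 was also lost without the young library 3 or the old library 1 at 48.

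The fitted step of Rbl1 from 48 to 72 had opposite signs in the ages. It was -1.13 (log2) in young livers (adjusted p = 0.0775) and 0.78 in old ones (0.207), and neither step was called by itself. The difference between the steps was called for Rbl1 (log2 fold change 1.91, SE 0.47, adjusted p = 0.0315), 1 of 10 genes against 1.85% of all genes called in that direction (0.99% under scaling by total counts, where Rbl1 was not called). For Foxm1 the difference was larger and less certain (log2 fold change 2.98, SE 0.89, adjusted p = 0.0741). In the young step edgeR called 0 of the 10 genes, with 5 at an unadjusted p under 0.05 and 1 called by DESeq2 (background 1.21%, or 0.268% under scaling by total counts). In the old step it called 0, with 3 at an unadjusted p under 0.05 and 0 called by DESeq2 (background 2.67%). The Rbl1 call did not hold without the old library 2 at 48 (1.67, adjusted p = 0.0974), nor without the young library 1 at 48, the young library 3 at 72 or the old library 2 at 72.

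In old livers at 48, E2f8 was near the young level in 2 of the 3 libraries. The old libraries 1 and 3 had 73.1 and 72.6 CPM of E2f8, close to the lowest young library at 74.5 and below it, while their Foxm1, at 6.67 and 24.3 CPM, was far below the lowest young value of 52.5. Every old library at 48 was below every young one in E2f8. The age difference of E2f8 at 48 was not called (log2 fold change -0.54, SE 0.46, adjusted p = 0.499), with a 95% interval of -1.44 to 0.35. Without the old library 2 it was -0.15. The log2 ratio of E2f8 to E2f1, on log2(CPM + 1), was 0.76 to 1.23 in young libraries at 48 and 2.05 to 3.18 in old ones. That of E2f8 to E2f2 was 1.83 to 2.53 in young and 3.01 to 3.18 in old, and that of E2f8 to Foxm1 was -0.80 to 0.72 in young and 1.54 to 3.27 in old. None of these 3 ratios overlapped between the ages. The ratios to Rbl1 (0.86 to 1.88 in young, 1.77 to 2.84 in old) and to E2f7 (2.33 to 3.56 and 2.63 to 4.17) did. These ratios were chosen after the values were seen and are given without a test.

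**Figure D4:**
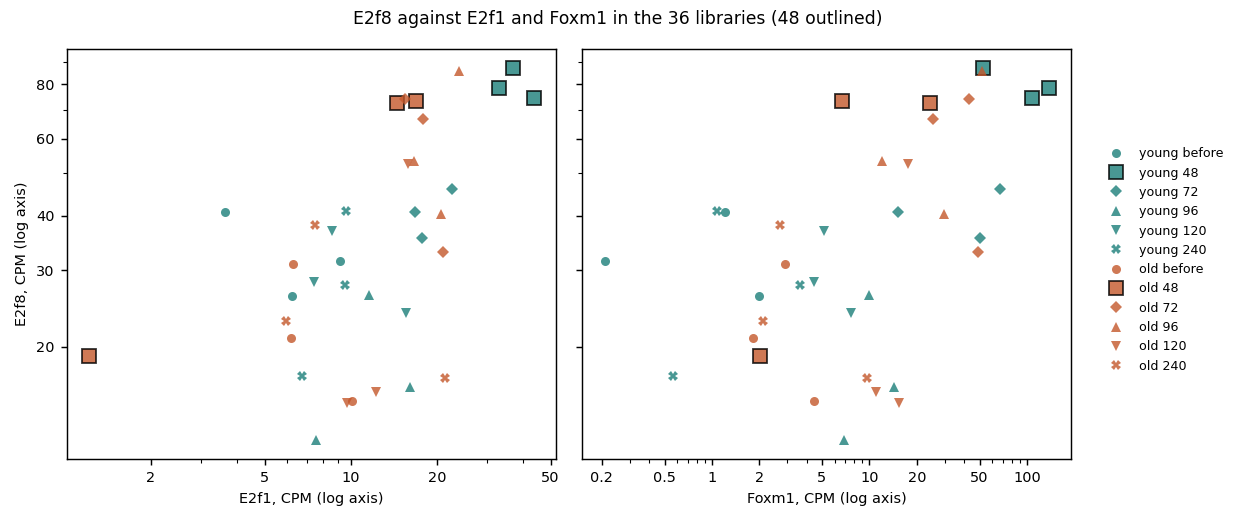
E2f8 against E2f1 (left) and against Foxm1 (right) in the 36 libraries, in CPM on log axes, with symbols for time point, green for young and orange for old, and the libraries at 48 outlined. At 48, 2 old libraries (73.1 and 72.6 CPM of E2f8) lie just below the lowest young library (74.5 CPM), with lower E2f1 and Foxm1. The old library 2 lies low in all 3 genes.

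Of the remaining members, E2f3, an activator, was not called in any of the 21 comparisons, and its group means stayed between 20.2 and 30.0 CPM. Its age difference at 48 was -0.18 with a 95% interval of -0.58 to 0.22, which leaves out the fitted difference of E2f1 and E2f2. E2f6, the Polycomb-linked repressor, was likewise called in none, with group means from 13.7 to 21.2 CPM and an interval at 48 of -0.41 to 0.40.

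E2f4 was called above before in both ages and was not called between the ages at any time. In young livers it was called at 72 (21.2, 17.7 and 15.0 CPM against 10.6, 15.7 and 7.75 CPM before; log2 fold change 0.67, SE 0.22, adjusted p = 0.0307), with groups that overlapped. In old livers it was called at 48 and at 72 (log2 fold change 0.64, SE 0.21, adjusted p = 0.0476), and the second call held in 26 of 47 settings. The old library 2 at 48, with 25.7 CPM, was the highest of all 36 for E2f4 and the lowest for E2f1. E2f5 was higher in every young library at 48 (10.8, 10.1 and 8.13 CPM) than in every old one (7.11, 5.47 and 6.75 CPM), and the difference was not called (log2 fold change -0.59, SE 0.23, adjusted p = 0.0956).

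The genes around the family were read from lists of their partners, their regulators and their targets. Of 11 pocket proteins, DP partners and MuvB subunits, 10 were tested, since Mybl2 did not pass the filter. At 48, 5 of the 10 were lower in old livers (background 6.78%) and none higher, with a list median of -0.64. Without the young library 1 at 48, 3 were called, and the fit of only the 6 libraries at 48 called 0. Lin54 (-1.29, adjusted p = 4.96e-05), Lin9 (-1.61, adjusted p = 0.000712) and Rbbp4 (-0.79, adjusted p = 0.0128) are MuvB subunits, Tfdp1 (-0.71, adjusted p = 0.0207) is the main DP partner, and Mybl1 (-2.47, adjusted p = 0.00205) is a relative of the MYB protein that joins MuvB. Rb1, the retinoblastoma gene, was at -0.04 (adjusted p = 0.911), and Rbl2 and Tfdp2, the most abundant after Rbbp4, were at -0.41 (adjusted p = 0.0860) and -0.35 (adjusted p = 0.346). Lin54 and Mybl1 were also called in the interaction (adjusted p = 0.00200 and 0.00529). In young livers 5 of the 10 rose at 48 (background 12.2%) and none fell. In old livers 3 rose (12.1%) and 1, Rbl2, fell (-0.69, adjusted p = 0.00193). The number called in old livers was 1 without the old library 2 or 3 before or library 1 at 48, and 2 without library 3 at 48. It was 0 in the fit of only the groups compared.

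The cyclin D and E kinases, which phosphorylate the pocket proteins, were called between the ages at 48 in 0 of 8 genes by edgeR (background 11.2%) and by DESeq2. Of them 4 had an unadjusted p under 0.05, and the list median was -0.37. Ccnd1, the most abundant of them at a mean of 448 CPM, was at -0.26 (adjusted p = 0.846), Cdk6 at 0.40 (adjusted p = 0.122) and Ccnd2 at -0.48 (adjusted p = 0.144). In young livers Ccnd3, Ccne1 and Cdk2 rose at 48 (background 12.2%), and in old livers Ccnd3, Ccne1, Cdk4 and Cdk6 did (12.1%). The fit of only the groups compared called 0 of them in old livers. The young number was 1 without library 3 before or library 3 at 48, and the old number was 2 without library 3 before and 1 without library 1 at 48. Of 9 partners of E2F6 in the Polycomb complex PRC1.6, 1 (L3mbtl2) was lower in old livers at 48, against 6.78% of all genes. This call was lost without the young library 1 or 3 or the old library 1 or 2. Mga, Max and Rnf2, the most abundant, were at 0.03 (adjusted p = 0.938), -0.0016 (adjusted p = 0.998) and -0.13 (adjusted p = 0.604). None of 5 germline genes known to be repressed by E2F6 passed the filter on low counts.

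Of 27 G1/S genes known as E2F targets, 25 rose at 48 in young livers (background 12.2%) and 12 in old livers (12.1%). In old livers 1, Tk1, fell (-1.36, adjusted p = 0.0141). At 48, 22 of the 27 were lower in old than in young livers (background 6.78%) and none higher, with a list median of -1.65. Pcna, the sliding clamp of DNA replication, was at -1.56 (adjusted p = 0.000515) and Ccna2, the S-phase cyclin, at -3.01 (adjusted p = 0.00307). With the old library 2 at 48 left out, 11 of the 27 were called, and the fit of only the 6 libraries at 48 called 0. The 13 calls in old livers at 48 became 7 without the old library 2 before and 4 without library 3. In old livers 18 of the 27 were above before at 72 (background 6.54%) and 17 at 96 (3.76%). Pcna was not among them at 72 (0.34, adjusted p = 0.452). These numbers were 10 and 7 without the old library 2 before, and 9 and 6 without library 3. The number at 72 was 11 without the old library 3 at 72, and that at 96 was 10 without library 1 and 7 without library 2 at 96.

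Of 22 G2/M genes known as targets of FOXM1 or MuvB, 21 rose at 48 in young livers (background 12.2%), with a list median of 5.44. In old livers 3 did (background 12.1%), Ccnf, Top2a and Ube2c, with a median of 1.92. This count was 12 without the old library 2 at 48 and 6 without the old library 3 at 96. It was 0 without the old library 2 or 3 before, without the old library 3 at 48, and in the fit of only the groups compared. At 72 all 22 were called above before in old livers (background 6.54%), with a median of 4.03, and 16 without the old library 3 before. Old against young at 48, 21 of 22 were lower (background 6.78%), with a median of -3.17. This count was 16 without the old library 2 at 48 and 0 in the fit of only the 6 libraries at 48. Cenpf, a kinetochore protein, was at -3.46 (adjusted p = 0.0147), Top2a, a DNA topoisomerase, at -2.97 (adjusted p = 0.0103) and Nek2, a centrosome kinase, at -3.19 (adjusted p = 0.00572). Over all genes tested the median was between -0.02 and 0.02 in these comparisons. These lists were chosen with earlier results of these data known, and their counts describe the genes around the 10 members.

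**Figure D5:**
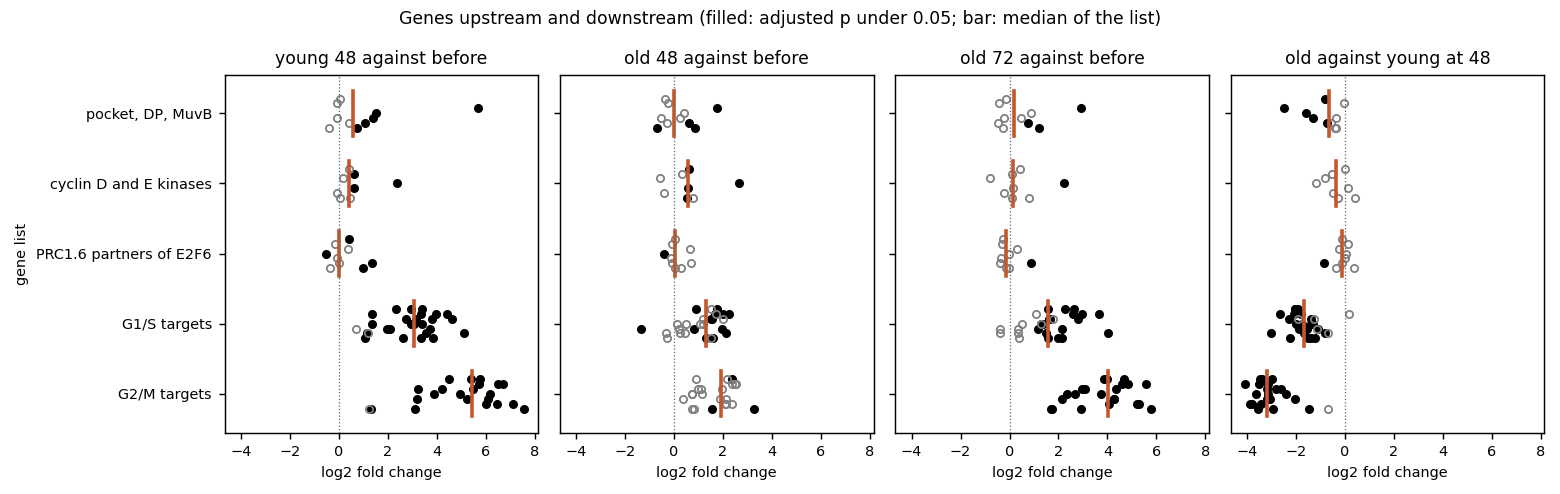
Log2 fold change of each gene of 5 lists in 4 comparisons, filled where the adjusted p was under 0.05, with a bar at the median of the list. The G2/M targets lie right of 0 in young livers at 48 and in old livers at 72, and left of 0 in old against young at 48, with medians of 5.44, 4.03 and -3.17.

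Among the members themselves, E2f1, E2f2, E2f7, Rbl1 and Foxm1 varied together over the 36 libraries, which share the time course of regeneration. On log2(CPM + 1), Pearson's r over the 36 libraries was highest between E2f7 and Foxm1, at 0.933, and lowest of these 10 pairs between E2f1 and E2f7, at 0.778. E2f8 had an r of 0.486 to 0.611 with these 5 genes, and E2f6 an r of at most 0.267 with any member. Over the 12 group means, the genes outside the list with the pattern most like that of Foxm1, of 12586 compared, were Sgol2a (r = 0.993), Anln and Hist1h1a. Those nearest to Rbl1 were Cchcr1, Fignl1 and Stil (0.986 to 0.982), those nearest to E2f2 were Aspm, Ckap2l and Birc5 (0.988 to 0.987), and those nearest to E2f1 were Slfn9, Lmnb1 and Hist1h2be (0.986 to 0.980). E2f7 was nearest to Tcf19, Uhrf1 and Hist3h2a (0.971 to 0.959). Sgol2a, Slfn9 and Stil were also first for Foxm1, E2f1 and Rbl1 over the 36 libraries.

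The nearest patterns to E2f8 over the group means were those of Rps19bp1, Wdr90 and Ftsj1 (r = 0.938 to 0.934), with r of 0.576, 0.764 and 0.584 over the 36 libraries. E2f3 was nearest to Btaf1, Zdhhc13 and Akirin2 (0.893 to 0.856), E2f4 to Bmper, Nnat and Serpinb6b (0.925 to 0.921), E2f5 to Fbxo45, Myg1 and Usp37 (0.918 to 0.906) and E2f6 to Wdr18, Gtf2h2 and Lhpp (0.915 to 0.850). Over the 36 libraries these likenesses were lower, with r of 0.381, 0.0624 and 0.371 for the neighbours of E2f3 in the same order, 0.461 to 0.610 for those of E2f4, 0.446 to 0.604 for those of E2f5, and 0.635, 0.130 and 0.431 for those of E2f6.

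The libraries with and without Y-linked transcripts were compared in 1 further test, chosen after the data were seen, with that property as a term beside the 12 groups. In edgeR, the only tool run for it, 0 of the 10 genes were called, against 8.4% of all genes. At an unadjusted p under 0.05, E2f8 was lower in the libraries with Y-linked transcripts (log2 difference -0.43, SE 0.19, adjusted p = 0.200), and E2f1 (0.46, SE 0.20, adjusted p = 0.164), E2f3 (0.19) and E2f6 (0.20) were higher. The library with Y-linked transcripts was the lowest of its 3 for E2f8 in 6 of 12 groups and the highest for E2f1 in 7 of 12.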

How the data were processed

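Total RNA from frozen liver, depleted of ribosomal RNA, was sequenced by the submitters. The deposited values are raw counts per gene symbol, which the authors made, per the submitters' processing notes, with Trimmomatic 0.39, STAR 2.7.5b, SAMtools 1.10 and featureCounts on GRCm38. The annotation and strand setting are not given in the sources used here. The tables held 0 rows for the spike-in controls and 27 date-like symbols, and no 2 libraries were identical.

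Counts were filtered (edgeR filterByExpr over the 12 groups), scaled by TMM and fitted in edgeR 4.0.16 (R 4.3.3) with robust quasi-likelihood estimates, 1 mean per group, all 36 libraries together. P-values were adjusted by Benjamini-Hochberg over 13436 genes. The fit was tested on simulated counts. Correlations used log2(CPM + 1). Standard errors are of the log2 fold change, and intervals take the normal 95% quantile of them. P-values set a difference against the spread between libraries within groups, estimated over all 12 groups together. They do not measure the spread of the groups compared alone.

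All 10 genes were named in every comparison. From each list of related genes the 3 most abundant were named, from the first 2 lists also those called between the ages at 48 or in the interaction, and for each member the 3 genes with the nearest pattern. 1 gene that this rule would name is not reported here. Other genes were named after their values were seen. The members and the lists were chosen with earlier results of these data known. Alternatives were DESeq2 1.42.0, other scalings and filters, replicate blocks, fits of only the groups compared, fits with and without the libraries with Y-linked transcripts, and each library left out in turn.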

Additional observations from a re-analysis of the deposited data

Results flagged for a closer look

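For 3 results the difference between the ages itself changed with time. The interaction of age and time was called for Foxm1 (adjusted p = 0.019065 by edgeR) and for Rbl1 (adjusted p = 0.018595). The step from 48 to 72 differed between the ages for Rbl1, with an adjusted p of 0.031477. Each of these was lost without the old library 2 at 48.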

How the results depend on the processing

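Single results of the members were followed only where the main fit or an alternative called them. Over these 54, 34 called and 20 not called in the main fit, 2316 alternative values kept direction and side of the threshold. Another 158 kept the direction and lost a call, 60 kept it and passed the threshold, and 0 reversed. Results called in no setting were left out of these numbers, and some of them changed direction. The age difference of E2f4 before regeneration did so in 18 of 47 alternatives. Scaling by total counts moved the median of all genes by up to 0.21 (log2, young at 72), and higher calls went from 52.9% to 79.6% of all calls there, from 55.4% to 69.9% in young at 48, from 53.0% to 72.3% in old at 72 and from 55.1% to 70.2% in old at 96. The numbers of the 10 genes called moved as follows. DESeq2 called 1 between the ages at 96, 3 in young at 96, 6 in old at 96, 3 in old at 120, 1 in the young step and 4 in the interaction. Fits restricted to the groups compared gave 0 between the ages at 48, 0 in old at 48, 0 in the step difference, 3 in young at 96 and 1 in young at 120. Without the libraries with Y-linked transcripts the numbers were 0 in young at 96, 1 in old at 48, 0 in the step difference and 0 in the interaction, and with a term for them 5 in old at 96 and 2 in old at 120. Total-count scaling gave 0 in the step difference.

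The labels do not say that replicate numbers mark paired samples, and a check of the values gave no strong sign of it. The mean correlation of deviations from the group mean was 0.0503 for the same number within an age, 0.0473 across the ages and -0.0206 for other numbers. Of 198 pairs of the same number, 46.0% were above 0.1, and 16 of 36 libraries correlated best with their own number. Deviations within a group add up to 0, which ties the value for other numbers to that for the same number. The check therefore cannot decide on a weak shared effect. A replicate block shared by the ages gave 2 calls in young at 96 and 2 in old at 120. A replicate block nested in age gave 2 between the ages at 48, 1 at 96 and 2 in old at 120. No other number moved by over 1.5 times under a block.

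Leaving out 1 library gave 2 to 5 calls between the ages at 48, 0 to 1 at 96, 0 to 3 in young at 96, 1 to 4 in old at 48, 2 to 7 in old at 72, 1 to 6 in old at 96 and 0 to 2 in old at 120. It gave 0 to 1 in each step, 0 to 2 in the step difference and 0 to 3 in the interaction. E2f7 and Foxm1 had 1 to 19 counts per library before regeneration, E2f2 had 3 to 17 and Rbl1 had 8 to 17. This limits the fold changes of these genes against that time.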
